A study of Mus musculus with 10 samples.

Results

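A set of 10 immediate early genes of the FOS, JUN, EGR and IER families were followed in mouse heart muscle cells that carried dnMKL1, which interferes in a dominant-negative way with MKL1 (MRTF-A), a coactivator of transcription. The members were taken by gene symbol alone: Fos, Fosb, Fosl2, Jun, Junb, Jund, Egr1, Egr2, Egr3 and Ier2, which are 10 of the 23337 genes listed, and all 10 were found. Both groups were wild-type mice injected on postnatal day 1 with 5e+08 viral genomes per gram of an AAV9 vector. In 5 samples, labelled GFP, the vector carried GFP behind the cTNT promoter, and in the other 5, labelled dnMKL1, it carried dnMKL1 with GFP behind the same promoter, which is active in cardiomyocytes. The virus, the promoter and the GFP were thus shared by the groups, and no uninjected group was analysed here. On postnatal day 14 the hearts were perfused with collagenase, the freed cells were sorted by fluorescence, and their polyadenylated RNA was sequenced. The labels call the 5 samples of each group biological replicates and do not say how many hearts went into each.

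Immediate early genes are switched on within minutes of a stimulus, without the need for new protein. FOS and JUN proteins are basic leucine zipper factors that pair to form AP-1, while EGR proteins bind GC-rich DNA through zinc fingers. Many of these genes are read out by serum response factor (SRF), which works either with ternary complex factors downstream of MAP kinases or with MKL1-type coactivators, and in heart they are known for their rapid induction by stretch, hormones and the handling of the tissue.

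The values come from the authors' deposited comparison of the groups, which gives for each gene a base mean (the count averaged over all 10 libraries after division by each library's size factor), a log2 fold change and its standard error (SE). It holds no values for single libraries, so the level in each sample and the overlap of the groups cannot be shown. The spread between replicates enters through the SE. Group levels are implied means, worked out from a gene's base mean and its fold change. Mkl1 set the direction of the fold change: its log2 fold change, from the authors' deposited table, was 9.80 (SE 0.15), read as higher with dnMKL1, and vector and endogenous reads were not separated. Size factors recovered from genes with a single read were 0.660 to 1.28 for GFP and 0.809 to 1.58 for dnMKL1, for estimated library totals of 8803028 to 17123577 and 8835136 to 17228616 counts. All 12 markers of the labelled cell type, the cardiomyocyte, were detected, with a base mean of 594986 in the authors' deposited table for Myh6, the main myosin heavy chain of the mouse heart after birth.

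Of the 10 genes, 5 were higher with dnMKL1 and 0 were lower at an adjusted p-value under 0.05 in the authors' deposited table (Wald test, Benjamini-Hochberg adjustment over 14056 genes). The 5 were Fosb, Jun, Junb, Jund and Ier2. At an unadjusted p-value under 0.05 there were 6 higher, with Egr1 added, and 0 lower. Over all genes tested, 34.1% were called in either direction, 16.6% as higher and 17.4% as lower. The median log2 fold change was 0.77 over the 10 members and 0.77 over the 9 with more than 3 normalized counts in at least 1 group, against 0.021 over all genes tested. All fold changes are relative to the authors' scaling. Scaling both groups to the same total count would add 0.29 to each gene, after which 86.0% of all called genes are higher in place of 48.8%. Under that scaling 6 members were called higher, beside 40.4% of all genes tested. Fosl2, at -0.0049 in the authors' deposited table, turned positive, while the other members kept a positive sign.

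**Figure D1:**
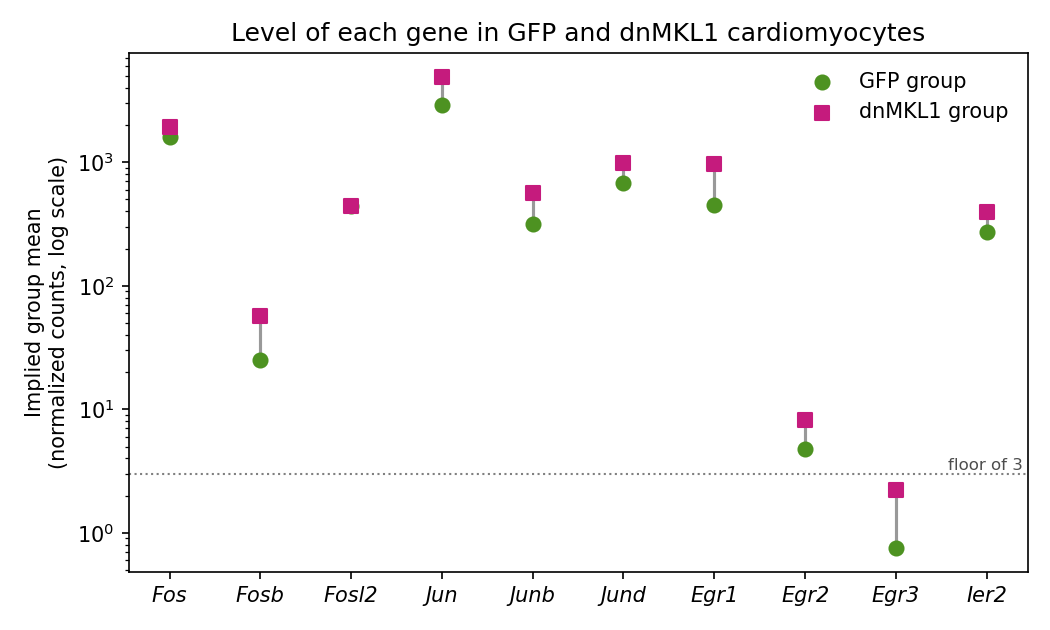
Implied group mean of each of the 10 genes (y axis, normalized counts on a log scale) in the GFP group (circles) and the dnMKL1 group (squares), with no error bars since values for single libraries were not used. Jun and Fos have the highest means, the dnMKL1 mean is the higher one for 9 genes, and Egr3 lies under the floor of 3 in both groups.

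All 3 JUN genes were higher with dnMKL1. JUN, JUNB and JUND are the obligate partners of FOS proteins in AP-1, and JUND is known as the member that is expressed at rest. Jun (ENSMUSG00000052684.4, chromosome 4, 95049034 to 95052222, minus strand of GRCm38) had implied means of 2897 normalized counts with GFP and 4944 with dnMKL1. That is a 1.71-fold difference with a 95% interval of 1.23 to 2.37, and a log2 fold change of 0.77 (SE 0.24) in the authors' deposited table with an adjusted p of 0.0062. Junb (ENSMUSG00000052837.6, chromosome 8, 84974484 to 84978718, minus strand) had implied means of 318 and 561 normalized counts. Its log2 fold change, from the authors' deposited table, was 0.82 (SE 0.20), or 1.76-fold with an interval of 1.35 to 2.31, at an adjusted p of 0.00027.

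Jund (ENSMUSG00000071076.6, chromosome 8, 70698949 to 70700616, plus strand) had the smallest SE of the 10 genes. Its implied means were 674 and 986 normalized counts, and its log2 fold change, from the authors' deposited table, was 0.55 (SE 0.13), or 1.46-fold with an interval of 1.23 to 1.74, at an adjusted p of 0.00017. The intervals of the 3 JUN genes overlap. Summed over the family and divided by transcript length, the implied level went from 1488 to 2451 normalized counts per kilobase. Jun made up 61.0% of that sum with GFP and 63.2% with dnMKL1, Jund 27.2% and 24.1%, and Junb 11.8% and 12.6%.

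Each JUN gene shares exon bases with a gene on the opposite strand in GENCODE vM21. The shared part is 232 bases with Junos for Jun, 173 bases with Prdx2 for Junb and 877 bases, or 52.6% of the exon sequence, with Gm11175 for Jund. Whether the authors' counting used strand is not given in the sources used here, so reads of each pair cannot be told apart. Junos and Gm11175 are not listed under these names in the authors' deposited table. Prdx2, a peroxiredoxin gene, had a log2 fold change of -0.36 there, with a base mean of 6427 against 439 for Junb.

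In the FOS family 1 of 3 members was higher with dnMKL1. FOS proteins cannot pair with each other and need a JUN protein to bind DNA. Fosb (ENSMUSG00000003545.3, chromosome 7, 19302696 to 19310051, minus strand) was the least abundant of the 3, with implied means of 25.1 and 56.6 normalized counts. Its log2 fold change, from the authors' deposited table, was 1.18 (SE 0.41), or 2.26-fold with an interval of 1.29 to 3.96, at an adjusted p of 0.016.

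Fos (ENSMUSG00000021250.13, chromosome 12, 85473890 to 85477273, plus strand), the founding gene of the family, had implied means of 1606 and 1922 normalized counts. Its log2 fold change, from the authors' deposited table, was 0.26 (SE 0.46) at an adjusted p of 0.74, and the interval ran from -0.65 to 1.17. That interval holds 0 as well as the values found for Jun and Junb. Fosl2 (ENSMUSG00000029135.10, chromosome 5, 32135801 to 32157842, plus strand), which encodes FRA2, had implied means of 444 and 442 normalized counts. The authors' deposited table gave it a log2 fold change of -0.0049 (SE 0.46) at an adjusted p of 0.99, with an interval of -0.90 to 0.89, wide enough to hold a change of the size of Jun in either direction. Fosl1, the remaining FOS gene and no member of the set, is listed at 0.

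No EGR gene passed the threshold of the Wald test, and Egr1 alone had an unadjusted p-value under 0.05. EGR1 is a zinc finger factor that is induced by many of the same signals as FOS. Egr1 had implied means of 453 and 970 normalized counts, and its log2 fold change, from the authors' deposited table, was 1.10 (SE 0.47), or 2.14-fold with an interval of 1.13 to 4.07, at an unadjusted p of 0.020 and an adjusted p of 0.058. The call for Egr1 depended on the filter and the scaling. Adjusted only over genes at or above a base mean of 100, its p was 0.046, and under total-count scaling it was 0.0094. It was not called with a base mean of at least 10 (adjusted p 0.051), over every p-value (0.071) or with median-centring (0.059).

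Egr2, known from Schwann cells and immune cells, had implied means of 4.79 and 8.18 normalized counts. The authors' deposited table gave it a log2 fold change of 0.77 (SE 0.53) at an adjusted p of 0.29. Egr3 had implied means of 0.749 and 2.21, under the floor of 3 counts per library in both groups, so no fold is given. Its adjusted p in the authors' deposited table was 0.38. Egr4, the last gene of the family and no member of the set, is listed at 0. Of the summed EGR level per kilobase, Egr1 made up 98.2% with GFP and 98.5% with dnMKL1.

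Ier2 (ENSMUSG00000053560.4, chromosome 8, 84661331 to 84662852, minus strand) encodes a small nuclear protein of the IER family. Its implied means were 274 and 395 normalized counts, and its log2 fold change, from the authors' deposited table, was 0.53 (SE 0.18), or 1.44-fold with an interval of 1.13 to 1.84, at an adjusted p of 0.012. The other 3 IER genes did not pass: per the authors' deposited table, the log2 fold changes were 0.33 (SE 0.21) for Ier5, -0.10 (SE 0.17) for Ier3, the most abundant of the family, and -0.80 (SE 0.64) for Ier5l.

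**Figure D2:**
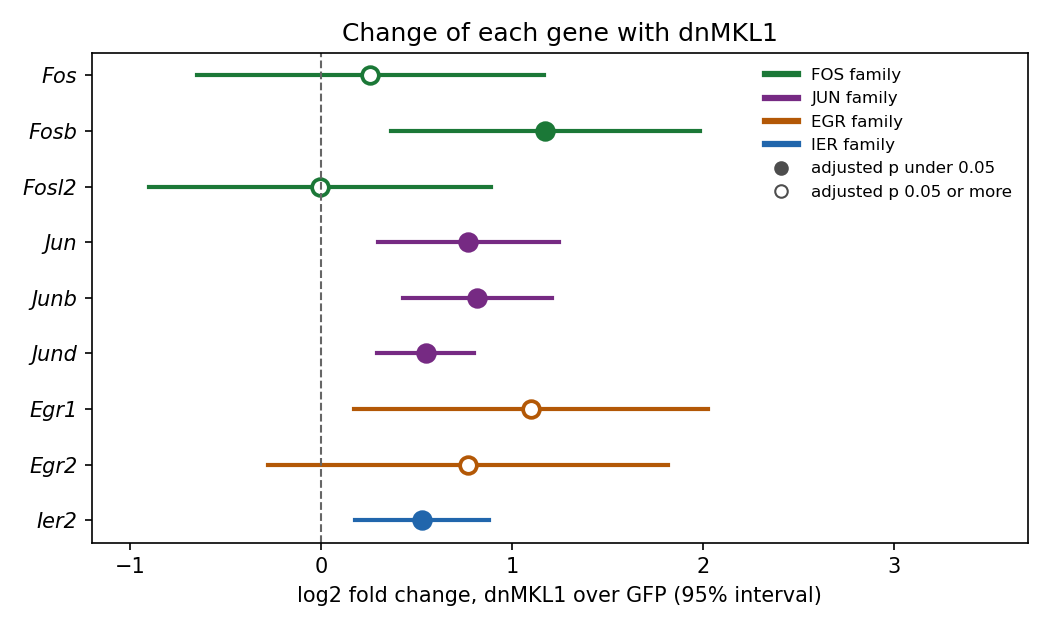
Log2 fold change of dnMKL1 over GFP (x axis) with its 95% interval from the SE for 9 genes, coloured by family. Filled points have an adjusted p under 0.05. The 3 JUN genes, Fosb and Ier2 are filled, while the intervals of Fos and Fosl2 span 0 on both sides.

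A call for one gene and none for another does not show that they differ. Among the 36 pairs of the 9 genes over the floor, 0 had a difference in log2 fold change whose 95% interval left out 0, either with the widest error that any correlation between 2 genes allows or with independent errors. The difference between Fosb and Fosl2 was 1.18, with an interval of -0.53 to 2.89 by the wider reckoning and -0.028 to 2.39 by the narrower. Fos minus Junb was -0.56, with intervals of -1.86 to 0.74 and -1.55 to 0.43.

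The error of several members was far above that of other genes of the same abundance. Counting error alone would give Fos an SE of 0.021, and the 200 genes nearest in base mean had a median SE of 0.098, against 0.46 for Fos in the authors' deposited table. All 200 of those neighbours had a smaller SE than Fos. The same ratio of SE to the neighbours' median was 4.70 for Fos, 4.75 for Egr1 and 4.30 for Fosl2. Of the 8641 genes at or above a base mean of 100, only 1.20% reached a ratio of 4 or more.

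The JUN genes and Ier2 stood closer to their neighbours than Fos, Egr1 and Fosl2 did, but still above most of them. The ratio was 2.56 for Jun, 1.83 for Junb, 1.40 for Jund, 1.54 for Ier2 and 1.61 for Fosb. Of 200 neighbours each, 196 had a smaller SE than Jun, 183 than Junb, 170 than Ier2 and 157 than Jund. A ratio of 2 or more was reached by 6.26% of genes at or above a base mean of 100. Egr2 and Egr3, where counting error is large for all genes, had ratios of 0.942 and 1.07. In terms of a coefficient of variation between replicates, found as the value that gives the deposited SE from the implied means and size factors, Egr1 stood at 51.7%, Fos at 50.7% and Fosl2 at 49.9%. Jun stood at 26.5%, Junb at 21.2%, Ier2 at 18.7% and Jund at 13.8%, and the median over those 8641 genes was 11.4%. Fosb, which was called at a lower level, stood at 41.8%, against a median of 23.2% over its neighbours.

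Fos, Egr1 and Fosl2 are abundant, and counting error was a small part of their SEs, at 0.021, 0.036 and 0.042. Some other rapidly induced genes, picked by name and not by a rule, had ratios of 5.59 for Atf3, 4.22 for Nr4a1 and 3.99 for Dusp1. Nab2, picked with them, had 0.880. The median over the 21 abundant genes of a wider list of immediate early genes was 2.20, lower than for Fos, Egr1 and Fosl2. Endothelial markers were also spread more than genes of like level, with a median ratio of 2.74 over 9 genes, mural markers had 1.92 over 7, and fibroblast markers 1.52 over 6. Cardiomyocyte markers had 1.01 over 12. Which libraries were high or low for any of these genes cannot be read from the table, and whether the same libraries were high for both kinds of gene was not tested.

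**Figure D3:**
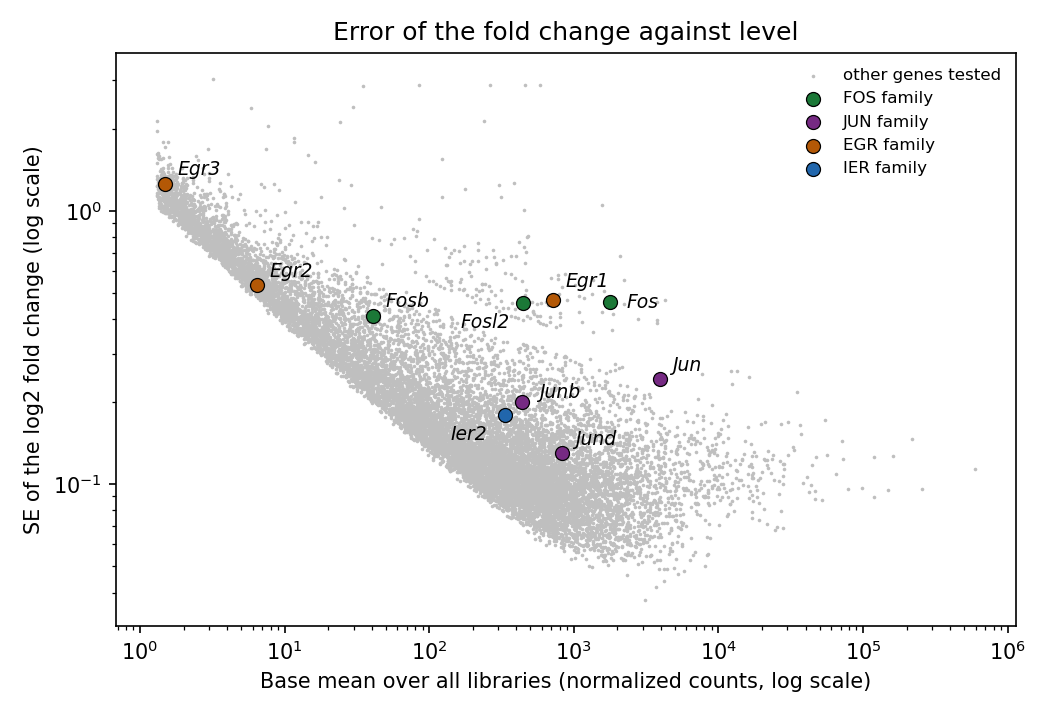
SE of the log2 fold change (y axis, log scale) against base mean (x axis, log scale) for every gene with an adjusted p (grey) and the 10 members (coloured by family). Fos, Fosl2 and Egr1 lie well above the grey band at SEs of 0.46 to 0.47, while Jund, Ier2 and Junb lie at 0.13 to 0.20.

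The order of levels was compared per kilobase of the longest coding transcript in GENCODE vM21, over both groups. Jun was highest at 1229 normalized counts per kilobase, followed by Fos at 837, Jund at 498, Junb at 243, Ier2 at 219 and Egr1 at 159. Fosl2 at 67.7, Fosb at 10.8, Egr2 at 2.19 and Egr3 at 0.375 followed. Jun and Fos differed by 46.9%, within the replicate variation of 50.7%, and the same held for Junb and Ier2 at 10.6% and for Ier2 and Egr1 at 38.3%. The other neighbours in this order differed by more than the larger of their coefficients of variation. These coefficients describe single libraries and not a mean over 10 libraries, so the comparison does not show which places in the order are resolved. Jun stood above 95.6% of coding genes tested per kilobase and Fosb above 23.5%. With the shortest coding transcript Fosb moved to 37.4 and Egr3 to 0.979 normalized counts per kilobase, and Egr1, at 234, passed Ier2.

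By gene structure, 4 of the 10 members have 1 exon in their longest coding transcript (Jun, Junb, Jund and Ier2). By the same transcript, this form is held by 309 of 12196 coding genes tested, or 2.53%. All 4 were higher with dnMKL1. Single-exon genes at large were called higher in 17.5% of cases and genes with more exons in 17.4%. The AU-rich pentamer ATTTA, a feature of short-lived messages, occurred 3 or more times in the 3′ untranslated region of 5 members (Fos, Fosl2, Jun, Egr2 and Egr3), beside 38.2% of coding genes tested. Of those 5, Jun alone was called, or 20.0%, near the 16.7% called higher among all coding genes with 3 or more.

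Stretches that begin 250 and end 11 bases before the RefSeq start site are shown for the called genes Jun, Junb and Fosb. That of Fos is added for comparison. The stretches show which of the motifs searched lie close to each start, and other known sites are not marked. Capitals mark matches to the motifs searched on both strands, in windows from 250 bases before to 50 after the start. They were the CArG box that SRF binds, TGANTCA for AP-1, TGACGTCA and TGACNTCA for JUN-ATF pairs, TGACGT for CREB and ATF factors, which is contained in TGACGTCA, and GCGNGGGCG for EGR proteins. Sequences run 5′ to 3′ on the gene's own strand, from RefSeq on GRCm38.p6.
Jun, chr4:95052233-95052472, minus strand: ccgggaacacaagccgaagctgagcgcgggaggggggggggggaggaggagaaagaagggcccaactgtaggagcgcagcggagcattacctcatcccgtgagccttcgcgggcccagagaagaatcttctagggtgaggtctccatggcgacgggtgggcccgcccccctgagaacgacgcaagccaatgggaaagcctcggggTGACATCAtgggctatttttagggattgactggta
Junb, chr8:84978759-84978998, minus strand: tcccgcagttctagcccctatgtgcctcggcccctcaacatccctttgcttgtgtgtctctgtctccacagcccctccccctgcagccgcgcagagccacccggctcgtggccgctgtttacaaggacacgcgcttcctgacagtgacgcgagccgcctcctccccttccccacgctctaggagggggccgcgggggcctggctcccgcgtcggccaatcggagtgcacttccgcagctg
Fosb, chr7:19310056-19310295, minus strand: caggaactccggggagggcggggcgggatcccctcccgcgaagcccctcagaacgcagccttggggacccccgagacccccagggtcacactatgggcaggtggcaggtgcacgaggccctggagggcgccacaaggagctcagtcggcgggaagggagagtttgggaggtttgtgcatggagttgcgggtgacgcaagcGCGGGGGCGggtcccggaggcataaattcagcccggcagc
Fos, chr12:85473640-85473879, plus strand: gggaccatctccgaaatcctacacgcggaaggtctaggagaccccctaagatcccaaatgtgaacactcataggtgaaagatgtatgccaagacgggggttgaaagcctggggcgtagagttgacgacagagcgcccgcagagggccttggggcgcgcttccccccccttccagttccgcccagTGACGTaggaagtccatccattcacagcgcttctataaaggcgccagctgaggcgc

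The Jun window held TGACATCA, a form known as a site through which JUN and ATF proteins act on this gene, 45 bases before the start. Matches to TGACNTCA occur in 8.83% of the 32851 RefSeq windows. In Fos the match was TGACGT at 66 bases before the start, found in 7.51% of windows. In Fosb it was GCGGGGGCG at 50 bases, with GCGNGGGCG in 5.55% of windows. G and C made up 68.8% of the promoter sequence of Fosb and 64.4% of that of Fosl2, given below. The median over all windows was 52.4%, and the share among windows of like G and C content was not worked out. No match was found in the Junb window. TGANTCA and TGACGTCA, which occur in 7.81% and 1.79% of windows, were in none of the members' windows.

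Among the genes that were not called, Fosl2 held the same EGR-type letters as Fosb, and Egr2, which has 5 RefSeq windows, held CArG boxes in 4 of them, a motif of 1.63% of all windows. Of these 4, 3 overlap and share 1 box, so that there are 2 distinct boxes. The same 3 windows also held 1 TGACGT site, on the opposite strand, which the first Egr2 stretch printed here cuts short and leaves in lower case. The 30 bases around each are given to set them beside Fosb and Jun.
Fosl2, chr5:32136383-32136412, plus strand: ccggctgcgcGCGGGGGCGgaagggcgcgc
Egr2, chr10:67537787-67537816, plus strand: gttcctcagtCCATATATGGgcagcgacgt
Egr2, chr10:67537484-67537513, plus strand: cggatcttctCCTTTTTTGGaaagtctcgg

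These matches describe letters near the start sites and not bound sites, and longer stretches were not searched. RefSeq windows matched 7 of the 10 members. That of Jund, with no match, lies upstream of its GENCODE start and is not shown, and Egr1, Egr3 and Ier2 had no window.

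Other genes of the same pathways were read from lists. For these lists and the marker lists, the shares to set beside each count are those over all genes tested. They were 34.1% called in either direction, 16.6% as higher and 17.4% as lower. Among 11 tested leucine zipper genes outside the FOS and JUN families, 3 were higher and 0 lower, with 4 at an unadjusted p under 0.05. Per the authors' deposited table, the log2 fold changes were 1.39 (SE 0.51) for Atf3, a stress-induced partner of JUN and the most abundant of the list, and 0.65 (SE 0.22) for Mafk, a small MAF factor. The adjusted p in the authors' deposited table was 0.021 for Atf3 and 0.014 for Mafk. Batf, a leucine zipper gene of immune cells, had implied means of 2.28 and 7.63 normalized counts, the first under the floor. The list's median was 0.39, or 0.49 over the 10 genes above the floor.

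Nab2, a corepressor of EGR proteins whose gene is itself an EGR target, was higher, with a log2 fold change of 0.97 (SE 0.21) and an adjusted p of 5.1e-05 in the authors' deposited table. Its implied means were 31.8 and 62.4 normalized counts, and its error was below that of its neighbours, at a ratio of 0.880. Nab1 had 0.36 (SE 0.26) in the authors' deposited table and was not called. Nab2 was the one gene called among the 5 tested of the EGR and NAB list.

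The wider list of other immediate early genes had 28 of its 30 names matched and tested, of which 14 were higher and 0 lower, with 15 at an unadjusted p under 0.05 and a median of 0.62. It shares Atf3 and Maff with the leucine zipper list, and without these 2 genes 13 of 26 were higher. Per the authors' deposited table, values were 1.16 (SE 0.14) for Zfp36l1, whose product promotes decay of AU-rich messages, 0.62 (SE 0.10) for Rhob, a small GTPase, 1.01 (SE 0.16) for Btg1, an antiproliferative gene, and 0.98 (SE 0.18) for Klf4, a Krüppel-like factor. The most abundant, the nuclear receptor gene Nr4a1, was not called at 0.27 (SE 0.40) in the authors' deposited table.

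Feedback genes of MAP kinase signalling had 4 higher and 1 lower of 15 tested, with a median of 0.22. Taken in either direction, that is near the 34.1% called over all genes tested. Per the authors' deposited table, the log2 fold changes were 1.95 (SE 0.19) for Spry4, a Sprouty inhibitor, and 0.93 (SE 0.21) for Dusp6, a phosphatase of ERK. Dusp4, another such phosphatase, had implied means of 3.51 and 88.9 normalized counts, so that its size rests on few reads in the GFP group. Dusp10, which acts on JNK and p38, was lower at -0.49 (SE 0.15) in the authors' deposited table. Dusp1, the most abundant and itself an immediate early gene, was not called at 0.22 (SE 0.39) in the authors' deposited table.

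Upstream factors and kinases were lower more often than higher, with 7 lower and 3 higher of 23 tested and a median of -0.12, a split that turned to 1 lower and 9 higher under total-count scaling. Srf was lower, with a log2 fold change of -0.80 (SE 0.10) in the authors' deposited table and implied means of 1082 and 620 normalized counts. The kinase genes Map2k4 and Mapk9, of the JNK branch that phosphorylates JUN, had -0.45 (SE 0.07) and -0.38 (SE 0.07) in the authors' deposited table. Mapk3, which encodes ERK1, was higher at 0.76 (SE 0.14) in the authors' deposited table. The ternary complex factor genes, named for their role, were not called: the authors' deposited table gave 0.21 (SE 0.10) for Elk1, 0.27 (SE 0.32) for Elk3 and -0.19 (SE 0.18) for Elk4.

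Among 18 tested genes known as AP-1 or EGR targets, 10 were higher and 1 lower, with a median of 0.54. Per the authors' deposited table, values were 1.39 (SE 0.13) for Cd44, an adhesion receptor, 2.91 (SE 0.34) for Hmox1, a heme oxygenase, 0.58 (SE 0.14) for Hbegf, a growth factor, and -0.36 (SE 0.07) for Vegfa, the most abundant and the 1 that was lower. These genes have other regulators as well, and the list was not compared with other lists.

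**Figure D4:**
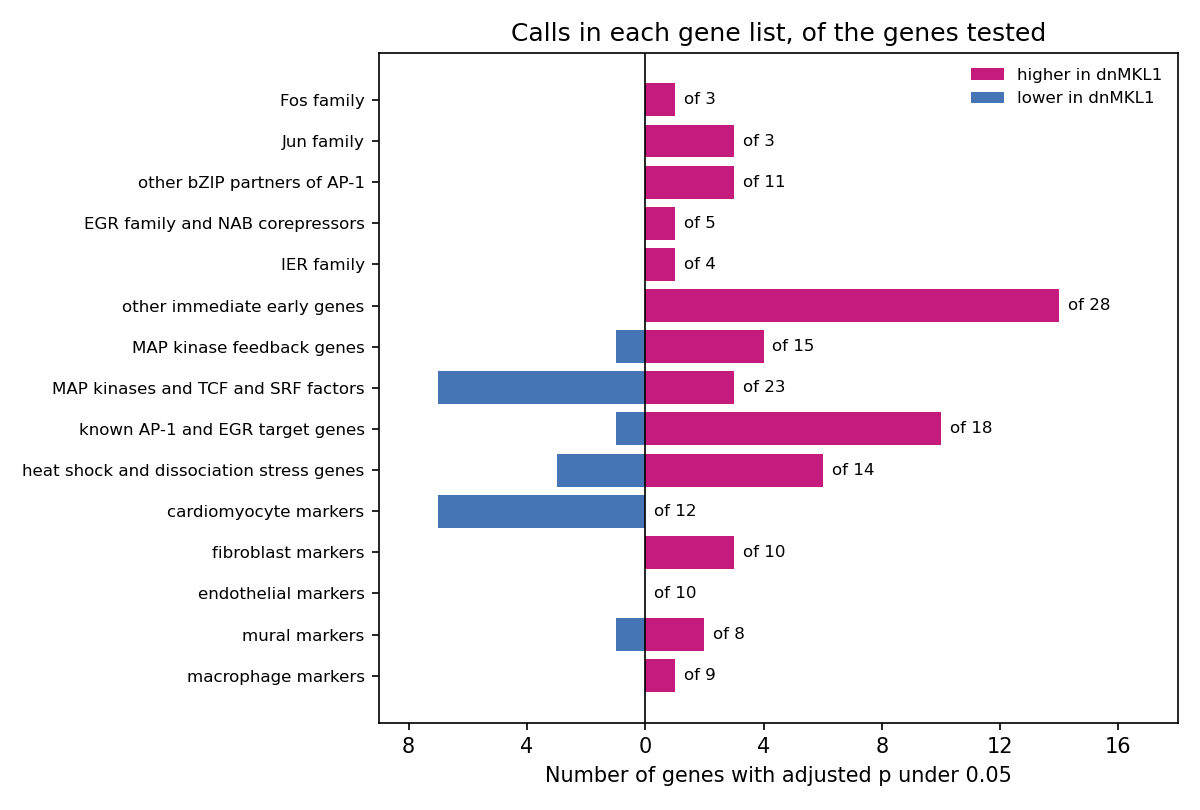
Number of genes with an adjusted p under 0.05 in each list, higher with dnMKL1 to the right and lower to the left (x axis, number of genes), with the number tested beside each bar. The list of other immediate early genes has 14 higher of 28, the kinase and SRF list has 7 lower of 23, and endothelial markers have none. Over all genes tested, 16.6% were higher and 17.4% lower.

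The list of genes that respond to heat or cell dissociation, which also holds organelle chaperones, had 6 higher and 3 lower of 14. The 3 lower were Hspd1 and Hspa5, given below, and Hspe1, named after its value was seen, at -0.48 (SE 0.14). Hspa1a and Hspa1b were among the 6 higher. Per the authors' deposited table, values were 1.12 (SE 0.11) for Hsp90aa1, 1.68 (SE 0.23) for Dnajb1 and 0.57 (SE 0.08) for Dnaja1, all cytosolic chaperone genes, and -0.79 (SE 0.08) for the mitochondrial chaperonin gene Hspd1. Hspa5, an endoplasmic reticulum chaperone and the most abundant, was lower at -0.36 (SE 0.08) in the authors' deposited table. Hspa1a and Hspa1b, near-identical genes whose reads the counting could split, named after their values were seen, had implied means of 50.3 and 51.1 normalized counts with GFP and 525 and 679 with dnMKL1. The part of these responses in the rise of the JUN genes, Fosb and Ier2 was not tested.

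Markers of other cells were present beside these changes, and in bulk samples fewer cells of a type and less RNA per cell cannot be told apart. Of 10 fibroblast markers 3 were higher and 0 lower, with 4 at an unadjusted p under 0.05, and their summed implied mean went from 3604 to 4983 normalized counts. In the authors' deposited table Col1a2 rose by 0.64 on the log2 scale (SE 0.14), Col1a1 by 0.67 (SE 0.17) and Col3a1, the most abundant, by 0.44 (SE 0.15). Col3a1 alone went from 1937 to 2625 within that sum. The other 7 markers were not called, at log2 fold changes of 0.024 to 0.79. Of 10 endothelial markers 0 were called by the Wald test and 0 had an unadjusted p under 0.05, with sums of 3142 and 3237. In the authors' deposited table Cldn5 stood at a log2 fold change of 0.20 (SE 0.34), Flt1 at 0.14 (SE 0.25) and Kdr, the most abundant, at 0.097 (SE 0.29).

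Of 8 mural markers 2 were higher and 1 lower, with sums of 11935 and 8145 that are mostly Acta2, which immature cardiomyocytes also express. In the authors' deposited table Cspg4 stood at 2.01 (SE 0.18), Myh11 at 0.73 (SE 0.20) and Acta2 at -1.06 (SE 0.25). The other 5 mural markers were not called, at log2 fold changes of -0.33 to 0.45. Macrophage markers were low, with sums of 171 and 152 over 9 genes, and 8 of the 9 fold changes were negative, with a median of -0.12. The most abundant, Lyz2, had -0.55 (SE 0.26) in the authors' deposited table and was not called, while 1 was higher, Cd68 at 1.03 (SE 0.39). No marker of the 4 types was listed at 0. Cardiomyocyte markers were lower in 7 of 12 cases and higher in 0, with 7 at an unadjusted p under 0.05, and Actc1, Myl3, Myh6 and Tnnt2 had -1.55 (SE 0.15), -1.38 (SE 0.12), -0.87 (SE 0.11) and -0.58 (SE 0.10) in the authors' deposited table. The part of other cell types in the levels of the 10 genes was not tested.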

How the data were processed

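Reads of 5 GFP and 5 dnMKL1 libraries were aligned with STAR 2.5.3a to mm10 and counted with featureCounts of Subread 1.5.2, per the submitters' processing notes. Annotation and strand use are not given in the sources used here. The labels' protocols give 10 ng of RNA, 8 PCR cycles and 500 pg of cDNA per library. The one table is the authors' DESeq2 comparison, per the file headers. Its deposited base mean is a signal in normalized counts, its deposited fold change and SE are on the log2 scale, the Wald statistic deposited with them is a score, their ratio (largest gap 1.1e-05), and its deposited p-value and adjusted p-value were recomputed within 2.7e-07. The authors' adjustment covers 14056 genes, from a base mean of 1.31 upwards.

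A count test had been planned for counts per library. As the table holds none, calls are the authors' adjusted p-values under 0.05, as planned for that case. Implied means take the base mean as the average of equal groups. Levels at or under 3 normalized counts per library, as a group mean, are under the floor and get no fold. Intervals are 95% normal intervals from the SE. Size factors came from genes with 1 read in 1 library (at least 42 genes behind each). The estimated totals assume each library has its group's composition, and they carry counting error only without molecular identifiers. The replicate variation was solved from the SE of the authors' DESeq2 fit under a negative binomial variance, in which dispersions borrow from other genes. Transcripts, exons and overlaps came from GENCODE vM21 and promoters from RefSeq, both on GRCm38. The calculations were tested on simulated data (Python 3.11.15, scipy 1.17.1). The wider motif forms TGACNTCA and TGACGT, the intervals between pairs of genes, the exon and ATTTA counts and the comparison of SEs over lists were added after the table was seen.

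Members and lists were chosen with earlier results of these data known. From each list the text names the called genes with the 4 smallest p-values and the most abundant gene, or the 2 smallest p-values where none was called; 1 gene that this rule names is not reported here. Genes most like a member across samples could not be ranked. Adgre1 among the macrophage markers and 2 names of the wider immediate early list were not matched.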

Additional observations from a re-analysis of the deposited data

How the results depend on the processing

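No paired analysis was possible because the table holds no values per library, and for the same reason the other count tests and the fits without 1 replicate were not run, so whether 1 library decides a call is unknown. Depth bears most on Egr2 and Egr3, where counting error alone would give SEs of 0.37 and 0.86.

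The 5 members called higher, beside 16.6% of all genes tested, became 3 (Jun, Junb, Jund) at an adjusted p under 0.01, beside 11.9%. They were 6 at 0.1 and 6 under total-count scaling, with Egr1 added to the same 5 both times. Over all genes tested, 19.8% were called higher at 0.1 and 40.4% under total-count scaling, so the background rose as well. With a base mean of at least 100 the members called were 5, beside 19.4% of all genes tested. Of these 5, 4 were shared, since Fosb was not tested there and Egr1 passed. The 5 members called as deposited were also called with adjustment over every p-value, a base mean of at least 10, median-centring or an absolute log2 fold change of at least 0.5. In that order, 12.8%, 19.1%, 16.4% and 10.6% of all genes tested were called higher. No setting called a member lower. Fosl2 reversed from -0.0049 to 0.28 under total-count scaling (adjusted p 0.65), by the added shift itself.

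At 0.01 the zipper partners had 0 higher and the macrophage markers 0. At 0.1 the EGR and NAB list had 2 higher, the kinase and SRF list 5 higher and the macrophage markers 1 lower. With a base mean of at least 100 no macrophage marker was left, so 0 were higher. Total-count scaling gave 5685 higher and 927 lower over all genes. It gave 8 higher zipper partners, 3 EGR and NAB genes, 9 higher and 1 lower kinase and SRF genes, 2 higher cardiomyocyte and 6 higher fibroblast markers. Feedback genes then had 0 lower, targets 0 and heat shock genes 1. A minimum log2 fold change of 0.5, which fewer genes can pass, left 1489 higher and 1246 lower over all genes, 0 lower feedback genes, 2 lower kinase and SRF genes, 0 lower targets and 1 lower heat shock gene. The shortest coding transcript moved Fosb to 37.4 and Egr3 to 0.979 normalized counts per kilobase, and put Egr1, at 234 per kilobase, above Ier2. Size factors of 1 moved no coefficient of variation by over 1.5 times.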
